A study of Mus musculus with 12 samples.

Results

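Bone marrow macrophages that lack the gene for interleukin 10 (IL-10) were given lipopolysaccharide (LPS, from the outer membrane of Gram-negative bacteria) together with IL-10, and their gene expression was set against that of the same cells left unstimulated. The comparison rests on 4 of the 12 arrays of the series: the 2 arrays labelled as IL10-deficient cells with LPS and IL-10, minus the 2 labelled as IL10-deficient and unstimulated. It was made over 12393 genes, each read by a single probe set, the brightest on average across the series. All cells were mouse macrophages of the strain given as 129-SvEv-Tac, grown from marrow for 5 days with 30% L-cell conditioned medium and 10% fetal calf serum, and replated the night before stimulation. IL10-/- cells received LPS at 1 ng/ml together with IL-10 at 0.3 ng/ml (2 arrays), the same dose of LPS alone (2 arrays), or no stimulus (2 arrays). The p50-/-IL10-/- cells, which also lack the p50 and p105 subunit of the transcription factor NF-kB, were used here under LPS with IL-10 (2 arrays) and without stimulus (2 arrays). Their 2 arrays with LPS alone were not compared, but entered the estimate of the spread. RNA was taken 4 h after stimulation. Every group, the unstimulated one included, carries the Il10 deletion. The titles call the 2 arrays of a group biological replicates, but the sources used here do not say whether they came from separate animals. So each p-value reflects only the spread between arrays of a group. That spread was pooled over all 12 arrays of the series, and was not taken from the compared arrays alone.

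LPS is sensed at the cell surface by Tlr4 with Cd14 and Ly96. The adaptor Myd88 passes the signal to NF-kB and to MAP kinases, which switch on cytokine and chemokine genes, while a second branch switches on interferon beta, whose own receptor induces antiviral genes. IL-10 binds a receptor of the chains Il10ra and Il10rb, which signals through the kinases Jak1 and Tyk2 to the transcription factor Stat3. Stat3 induces genes such as Socs3 and Il1rn, and IL-10 is known for holding down the output of inflammatory cytokines by LPS-treated macrophages. The comparison described here asks which part of macrophage activation is present when both signals act.

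Levels below are log2 values made with RMA, differences are log2 differences with their standard error (SE), and every group has n = 2 arrays. A gene was called higher or lower at an adjusted p under 0.05 (limma, Benjamini-Hochberg over all genes, two-sided). A group mean under 5.60, the highest lower quartile of the 12 arrays, is called dim, and sizes of changes that start or end there are uncertain. Where a list had 0 calls in a direction, the number of its genes at an unadjusted limma p under 0.05 in that direction follows in brackets. Members given with values beyond the largest called changes of a list were chosen after their values were seen. In bulk RNA, fewer cells of a type and less RNA per cell cannot be told apart.

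Macrophage markers had the highest mean level of the marker lists checked. All 10 macrophage markers were above the dim level in every group, with Lyz2 at 14.01 and 14.03 under LPS with IL-10 and at 14.05 and 14.04 without stimulus, and Csf1r at 13.49 and 13.53 against 13.60 and 13.59. All 11 neutrophil markers were also above the dim level in every group, and 9 of 10 stromal markers in each IL10-/- group. Under LPS with IL-10 and without stimulus their list means were 8.14 to 8.28 and 6.23 to 6.59. Those of the macrophage markers were 12.13 to 12.39. Of the 10 macrophage markers, 2 were called higher (Cd14 and Itgam), 1 was lower (Mertk) and 7 were not called. Only 1 of the 10 was called higher without array 1 of LPS with IL-10 or without either unstimulated array. Neutrophil markers had a summed linear level of 6691 to 6706 under LPS with IL-10 and of 7560 to 8063 without stimulus, with 2 of 11 called lower (Ltf by -0.38 ± 0.08 and S100a9 by -0.28 ± 0.08). The count was 0 without unstimulated array 1 and 1 in each of the other fits without 1 array. Markers of dendritic, B, T and NK, erythroid, mast and stromal cells gave 0 calls in 51 measured genes (unadjusted 1, the B cell receptor chain Cd79b at -0.40 ± 0.15, and 1 B cell gene called lower without unstimulated array 2), and their list means lay between 5.56 and 6.59 in both groups. The Il10 probe set read 6.83 and 6.96 under LPS with IL-10 against 6.57 and 6.98 without stimulus, and the sources used here do not place it relative to the deletion, so it checks nothing about the knockout.

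The arrays of a group correlated at 0.992 to 0.997, with differences between array 1 and array 2 that touch several results. Interferon-stimulated genes read lower on array 2 than on array 1 of each IL10-/- group. Over 37 such genes the array means were 9.89 and 8.74 under LPS with IL-10, 11.37 and 10.61 with LPS alone, and 9.05 and 7.84 without stimulus. Array 2 was the lower one for 33, 36 and 36 of the 37 genes in these groups. Genes of MHC class II presentation showed a gap of the same direction, with list means of 9.99 and 9.61 under LPS with IL-10 and of 10.01 and 9.51 without stimulus. Chemokines, Fc receptors and MHC class I loading genes also read lower on array 2 in these groups, by list means of 8.86 against 9.18, 11.86 against 12.17 and 10.24 against 10.53 under LPS with IL-10. Stromal markers read higher on array 2, at 6.58 against 6.23 under LPS with IL-10 and 6.59 against 6.24 without stimulus. The source of these gaps was not tested.

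LPS with IL-10 changed 2411 genes, 860 of them higher and 1551 lower than in unstimulated IL10-/- cells. These are 6.94% and 12.5% of the genes tested, the shares beside which the counts of the gene lists below stand. The increases were the larger in size, with 229 of them at least 2-fold, 53 at least 4-fold and 14 at least 8-fold. Among the decreases 206 were at least 2-fold, 24 at least 4-fold and 3 at least 8-fold. The split between the directions depended on the scaling: with each array centred on its median, 1247 genes were called higher and 1159 lower (51.8% of calls higher, against 35.7% on the deposited values). The median difference over all genes was -0.0029 on the deposited values, and centring raised every difference of this contrast by 0.075. Without array 2 of the unstimulated cells 1469 genes were called, and without array 1 of the cells given LPS with IL-10 1482 were. LPS alone, against the same unstimulated arrays, gave 962 higher (7.76%) and 2116 lower (17.1%), or 50.3% of calls higher with centred arrays, against 31.3%, and 38 of its increases were at least 8-fold. The direct comparison of LPS with IL-10 against LPS alone gave 415 higher (3.35%) and 350 lower (2.82%). Its total of 765 became 426 to 1082 without 1 array, with 466 without array 1 of LPS alone, 429 without array 1 and 426 without array 2 of LPS with IL-10. The total for LPS alone, 3078, became 1950 without unstimulated array 2.

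**Figure D1:**
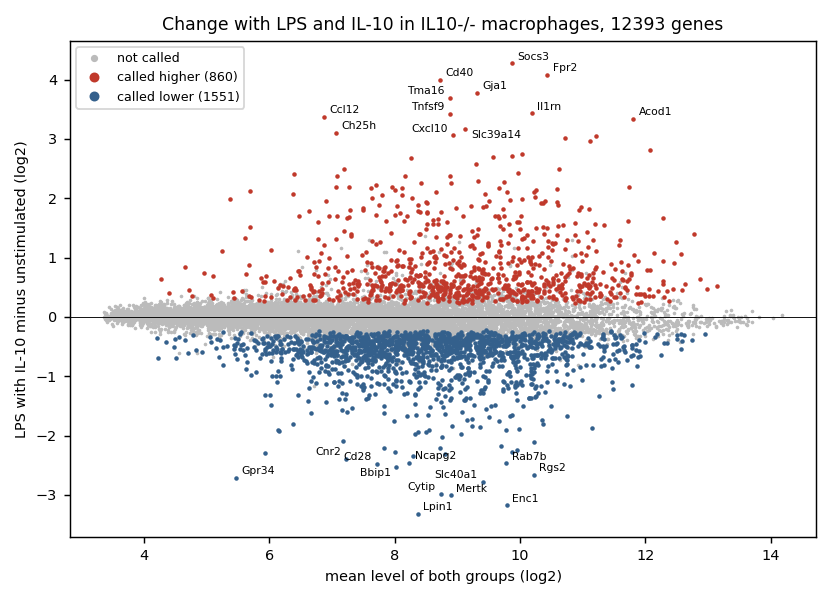
Difference between LPS with IL-10 and no stimulus in IL10-/- macrophages (y axis, log2) against the mean level of both groups (x axis, log2), 1 point per gene, with called genes in red (860 higher) and blue (1551 lower) and grey points not called. The largest increases, led by Socs3 and Fpr2, reach 4.28 and 4.08, and the largest decrease, Lpin1, reaches -3.32.

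Socs3, the Stat3 target that blocks cytokine receptor signalling, had the largest increase of all genes tested. It read 12.04 and 11.97 under LPS with IL-10, 11.26 and 11.32 with LPS alone, and 7.79 and 7.67 without stimulus. The largest increases and decreases described here were picked among called genes whose 2 compared groups did not overlap on the arrays. The rise of Socs3, 4.28 ± 0.08 (19.4-fold, adjusted p 6.95e-10 by limma), included a further 0.72 ± 0.08 over LPS alone (adjusted p 0.00054). Its 2 other probe sets rose by 3.78 and 4.25. Fpr2, a formyl peptide receptor that guides cells to bacterial peptides, read 12.68 and 12.27 under LPS with IL-10, 12.40 and 11.93 with LPS alone, and 8.90 and 7.89 without stimulus. Its rise of 4.08 ± 0.32 did not differ detectably from that with LPS alone (0.31 ± 0.32, adjusted p 0.736).

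The other large increases fell on either side of the level with LPS alone. Gja1, a gap junction protein, read 11.23 and 11.17 under LPS with IL-10, 8.99 and 9.46 with LPS alone, and 7.13 and 7.71 without stimulus, a rise of 3.78 ± 0.21. Its probe set carries a name that marks shared probes, and its 5 other probe sets were called higher as well, by 0.85 to 3.97. Il1rn, the secreted antagonist of interleukin 1, read 12.00 and 11.80 under LPS with IL-10, 10.23 and 9.70 with LPS alone, and 8.58 and 8.36 without stimulus. It rose by 3.43 ± 0.16 (10.8-fold, adjusted p 5.16e-07), and 1.94 ± 0.16 of that lay above LPS alone. Slc39a14, a zinc importer, rose by 3.17 ± 0.14 to 10.60 and 10.83, against 8.56 and 8.78 with LPS alone and 7.38 and 7.72 without stimulus. Its second probe set rose by 0.89. Tma16, a ribosome biogenesis factor known from yeast, read 10.62 and 10.83 against 7.16 and 6.90 without stimulus (3.69 ± 0.19), but its second probe set changed by 0.24 and was not called.

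Cd40, the co-stimulatory receptor for T cell help, read 10.74 and 10.71 under LPS with IL-10, 11.50 and 11.27 with LPS alone, and 6.96 and 6.50 without stimulus. It rose by 3.99 ± 0.16 (15.9-fold) and was 0.66 ± 0.16 below LPS alone (adjusted p 0.032). Tnfsf9, the ligand of the co-stimulatory receptor 4-1BB, rose by 3.43 ± 0.17 and was 1.03 ± 0.17 below LPS alone. The chemokine Cxcl10, which attracts T cells, read 10.99 and 9.93 under LPS with IL-10, 13.32 and 12.73 with LPS alone, and 7.84 and 6.97 without stimulus. It stood 3.06 ± 0.36 above unstimulated cells and 2.56 ± 0.36 below LPS alone. Ch25h, an enzyme that turns cholesterol into an antiviral oxysterol, rose by 3.10 ± 0.38 and Ccl12, a monocyte attractant, by 3.37 ± 0.52, both from dim levels without stimulus. Acod1, the enzyme that makes itaconate, stood near the top of the scale at 13.46 and 13.49 under LPS with IL-10 and at 13.65 and 13.71 with LPS alone, against 10.73 and 9.55 without stimulus.

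The promoters of these genes were read for 4 short letter patterns, as a description of the sequence in front of the largest increases. Of the 12 largest increases 9 had an entry in the RefSeq promoter table (GRCm38.p6, 250 bases before to 50 after the start). Of these, 7 held at least 1 match, and the share of all genes holding at least 1 was not computed. The patterns were TTCNNNGAA (the core of a Stat site), GAAANNGAA (interferon response letters), GGANTTTCC (NF-kB letters) and TGAGTCA (AP-1 letters), searched on both strands. They were found in 2, 2, 2 and 3 of the 9 genes, counting a match in any promoter of a gene. Counted in that way, they were in 9.55%, 9.76%, 1.45% and 5.95% of all 27025 genes of the table. Of its 32851 single promoters, 8.30%, 8.56%, 1.25% and 5.20% held them. No match overlapped another in these promoters. The 250 bases before the start are shown for the 5 largest increases with a match, 5′ to 3′ on the gene's strand, with the matched letters in capitals: TTCNNNGAA in Socs3 (-154, counted in bases from the start) and Fpr2 (-77), TGAGTCA in Gja1 (-19) and Il1rn (-141, the first of its 3 listed starts), and GAAANNGAA in Tma16 (-180).
Socs3 (chr11:117969367-117969616, minus strand): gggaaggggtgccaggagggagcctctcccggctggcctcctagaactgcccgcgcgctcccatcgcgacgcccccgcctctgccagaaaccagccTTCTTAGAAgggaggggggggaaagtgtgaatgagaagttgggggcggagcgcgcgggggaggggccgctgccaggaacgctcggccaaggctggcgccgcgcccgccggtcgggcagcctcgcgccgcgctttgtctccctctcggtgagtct
Fpr2 (chr17:17887574-17887823, plus strand): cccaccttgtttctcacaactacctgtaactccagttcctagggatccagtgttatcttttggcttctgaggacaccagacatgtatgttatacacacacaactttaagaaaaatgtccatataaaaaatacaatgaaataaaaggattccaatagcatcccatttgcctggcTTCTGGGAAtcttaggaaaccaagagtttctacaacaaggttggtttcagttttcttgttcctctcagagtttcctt
Gja1 (chr10:56377050-56377299, plus strand): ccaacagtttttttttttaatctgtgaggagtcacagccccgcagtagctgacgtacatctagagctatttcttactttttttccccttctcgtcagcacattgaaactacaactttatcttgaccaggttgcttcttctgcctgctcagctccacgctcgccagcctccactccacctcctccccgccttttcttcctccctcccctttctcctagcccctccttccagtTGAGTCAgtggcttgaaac
Tma16 (chr8:66486531-66486780, minus strand): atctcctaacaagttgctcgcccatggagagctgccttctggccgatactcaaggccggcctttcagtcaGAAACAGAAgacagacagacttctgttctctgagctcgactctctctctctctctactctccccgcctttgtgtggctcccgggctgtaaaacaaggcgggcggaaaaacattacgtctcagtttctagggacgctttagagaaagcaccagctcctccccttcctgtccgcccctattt
Il1rn (chr2:24336610-24336859, plus strand): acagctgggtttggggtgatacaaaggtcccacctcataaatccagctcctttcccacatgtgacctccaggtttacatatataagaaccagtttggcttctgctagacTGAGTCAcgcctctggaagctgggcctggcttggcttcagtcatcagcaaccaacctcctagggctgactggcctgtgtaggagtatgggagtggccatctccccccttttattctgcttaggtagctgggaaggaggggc

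Of the remaining promoters, Acod1 held GGANTTTCC at -85, and Cxcl10 held GAAANNGAA at -213, GGANTTTCC at -158 and TGAGTCA at -74. A match says only that these letters stand in this window.

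The largest decreases took in genes of lipid synthesis, uptake of dying cells and iron export. Lpin1, a phosphatase of lipid synthesis, read 6.32 and 7.09 under LPS with IL-10, 7.15 and 7.79 with LPS alone, and 9.88 and 10.18 without stimulus. It fell by 3.32 ± 0.25 on the log2 scale (9.99-fold, adjusted p 9.3e-06), and its second probe set by 2.02. Mertk, the receptor through which macrophages take up dying cells, read 7.49 and 7.30 under LPS with IL-10, 8.87 and 8.46 with LPS alone, and 10.32 and 10.49 without stimulus. It differed by -3.01 ± 0.19 from unstimulated cells and by -1.27 ± 0.19 from LPS alone (adjusted p 0.00294 by limma).

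Slc40a1, the iron exporter ferroportin, fell by 2.78 ± 0.21 to 7.83 and 8.20, against 8.11 and 8.62 with LPS alone and 10.75 and 10.83 without stimulus. Cd28, best known as a T cell co-stimulatory receptor, fell by 2.47 ± 0.13 and stood 1.01 ± 0.13 below LPS alone. Enc1, an actin-binding protein, fell by 3.17 ± 0.09, with 0.69 ± 0.09 of it below LPS alone. The falls of Cytip (2.98 ± 0.20), Gpr34 (2.71 ± 0.15), Rgs2 (2.66 ± 0.17), Bbip1 (2.52 ± 0.11), Rab7b (2.47 ± 0.12) and Cnr2 (2.39 ± 0.20) did not differ detectably from those with LPS alone, with differences between -0.30 and 0.52. Cytip regulates adhesion, Gpr34 is a lysophospholipid receptor, Rgs2 a brake on G protein signalling and Cnr2 the cannabinoid receptor of immune cells. Gpr34 ended at a dim 4.06 and 4.18. Ncapg2, a condensin subunit, differed by -2.46 ± 0.62, but its arrays spread widely (7.60 and 6.41 against 10.46 and 8.47 without stimulus) and the call ended without unstimulated array 1 or array 2 of LPS with IL-10 (adjusted p up to 0.129).

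**Figure D2:**
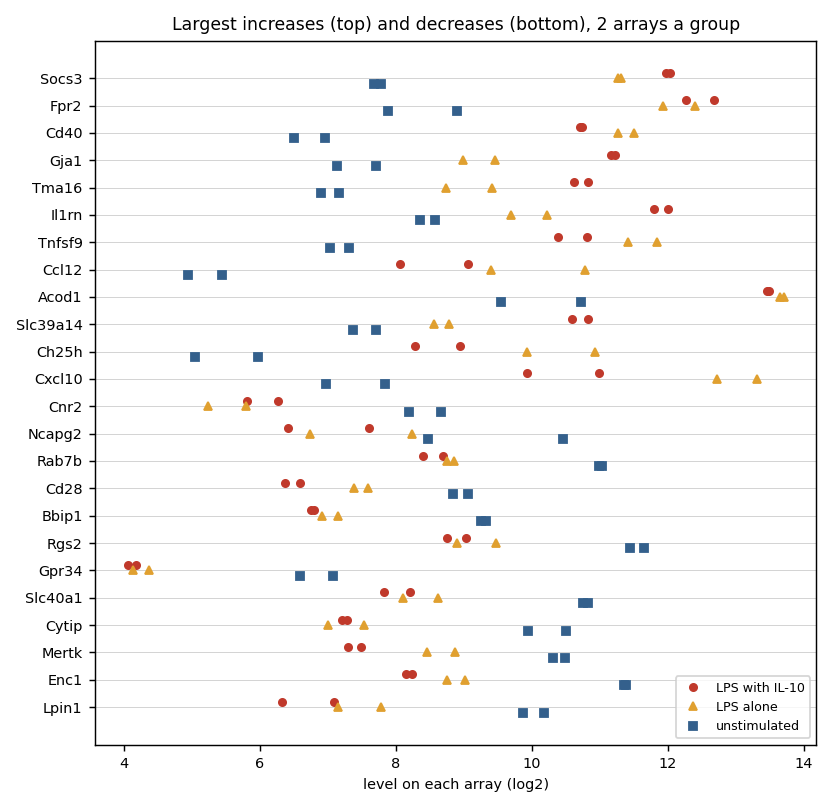
Level on each array (x axis, log2) of the 12 largest increases (upper rows) and 12 largest decreases (lower rows) in IL10-/- cells, with 2 points each for LPS with IL-10 (circles), LPS alone (triangles) and no stimulus (squares). Il1rn, Gja1 and Slc39a14 lie higher with IL-10 than with LPS alone, Cxcl10 and Ch25h lie lower, and Mertk and Cd28 lie lower still than the fall with LPS alone.

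Of 25 measured genes of the IL-10 receptor and STAT3 response, most of them targets rather than signalling parts, 19 rose, 2 fell and 4 were not called, with a median difference of 0.90. LPS alone gave 13 higher, 2 lower and a median of 0.41. The list was drawn up with the known targets of IL-10 in mind, so its direction is not independent evidence. Stat3 itself read 11.85 and 11.67 under LPS with IL-10, 10.67 and 10.69 with LPS alone, and 10.68 and 10.63 without stimulus. It rose by 1.11 ± 0.10 over unstimulated cells (adjusted p 2e-05) and by 1.08 ± 0.10 over LPS alone, while LPS alone left it at 0.03 ± 0.10.

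Several further members, such as Il4ra, Bcl3, Mt2 and Ier3, were higher with IL-10 and little changed or lower with LPS alone. Il4ra, the interleukin 4 receptor chain, read 11.39 and 11.21 under LPS with IL-10, 8.97 and 8.84 with LPS alone, and 9.45 and 9.30 without stimulus, a rise of 1.93 ± 0.13. Bcl3, an atypical IkB protein, rose by 1.70 ± 0.15, against 0.41 ± 0.15 with LPS alone. Mt2, a metal-binding metallothionein, rose by 2.49 ± 0.41, against -0.24 ± 0.41 with LPS alone, and the stress gene Ier3 by 1.57 ± 0.15, against 0.26 ± 0.15. Hmox1, which degrades heme, rose by 1.56 ± 0.31 and the kinase Jak1 by 0.54 ± 0.09. Cdkn1a and Pim1 instead stood higher with LPS alone. Cdkn1a, an inhibitor of cell division, rose by 1.59 ± 0.10, which was 1.35 ± 0.10 below LPS alone. The kinase Pim1 rose by 1.34 ± 0.14, which was 0.54 ± 0.14 below it.

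Both chains of the IL-10 receptor were lower, with Il10ra at 8.78 and 8.99 against 9.31 and 9.28 without stimulus (-0.41 ± 0.12) and Il10rb at 11.37 on both arrays against 11.74 and 11.67 (-0.33 ± 0.09). Neither call held with centred arrays, where 0 of the 25 list members were called lower. Nor did either hold without array 1 of LPS with IL-10 or without either unstimulated array. The remaining risers were Ddit4 (2.38 ± 0.28), Il21r (0.90 ± 0.14), Etv3 (0.89 ± 0.11), Mt1 (0.88 ± 0.25), Tnfrsf1b (0.80 ± 0.08), Nfil3 (0.56 ± 0.14) and Zfp36 (0.49 ± 0.12). The calls of Mt1, Nfil3 and Zfp36 ended without unstimulated array 1, at adjusted p up to 0.211, 0.135 and 0.104 over all fits. Socs1 (0.33 ± 0.38), Il1r2 (0.08 ± 0.12), Tyk2 (-0.04 ± 0.11) and Socs2 (-0.24 ± 0.12) were not called.

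Of 21 measured cytokine genes, 7 rose and 0 fell (unadjusted 0), with a median of 0.17, against 12 higher and 0 lower (unadjusted 0) with LPS alone, with a median of 0.97. Il1b, the precursor of interleukin 1 beta, read 12.46 and 11.98 under LPS with IL-10, 12.50 and 12.13 with LPS alone, and 9.49 and 8.92 without stimulus. The levels with and without IL-10 overlapped, and the rise was 3.02 ± 0.26. Tnf, tumour necrosis factor, read 11.22 and 11.24 under LPS with IL-10, 12.47 and 12.37 with LPS alone, and 8.60 and 8.42 without stimulus, a rise of 2.72 ± 0.11 that stood 1.19 ± 0.11 below LPS alone.

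At the other end stood Il6, which drives the acute phase response. It read 3.90 and 4.30 under LPS with IL-10, 9.04 and 7.69 with LPS alone, and 3.80 and 3.93 without stimulus, so the groups with IL-10 and without stimulus overlapped at a dim level (0.23 ± 0.33, adjusted p 0.73). Il12b, the shared subunit of interleukins 12 and 23, read 5.51 and 5.39 under LPS with IL-10 and 4.86 and 4.66 without stimulus, both dim, against 10.07 and 9.87 with LPS alone. Its call (0.69 ± 0.21, adjusted p 0.0472) ended in all 4 fits without 1 array (adjusted p up to 0.234). Il15, a growth factor of NK and memory T cells, read 8.25 and 8.46 against 8.10 and 8.18 without stimulus and was not called (0.22 ± 0.12), and it stood 2.69 ± 0.12 below LPS alone. The growth factor Csf1 was likewise not called (0.19 ± 0.13), with 1.65 ± 0.13 less than with LPS alone. Ebi3 (1.01 ± 0.14) and Il1a (0.77 ± 0.19) completed the 7 risers with Il1rn and Tnfsf9.

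Of 23 measured chemokine genes, 13 rose, 0 fell (unadjusted 1) and 10 were not called, with a median of 0.71, against 12 higher and 1 lower with LPS alone (median 0.87). The median was 0.44 without array 1 and 1.32 without array 2 of LPS with IL-10. Ccl3 and Ccl4, attractants of monocytes and T cells, rose by 2.27 ± 0.21 and 2.75 ± 0.28. Ccl5 rose by 2.97 ± 0.63, but its unstimulated arrays read 11.06 and 8.21, and the call ended without array 1 of LPS with IL-10. The neutrophil attractants Cxcl2 and Cxcl1 rose by 1.81 ± 0.11 and 1.62 ± 0.26 and stood 1.78 ± 0.11 and 2.91 ± 0.26 below LPS alone. Ccl8, a monocyte attractant, read 11.15 and 10.69 under LPS with IL-10, 9.33 and 8.66 with LPS alone, and 8.77 and 7.67 without stimulus. It rose by 2.70 ± 0.42 and stood 1.93 ± 0.42 above LPS alone. Cxcl9 (0.71 ± 0.44) and Cxcl11 (0.64 ± 0.67), both interferon-induced attractants of T cells, were not called, where Cxcl9 stood 2.57 ± 0.44 below LPS alone.

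The NF-kB pathway and its feedback genes rose almost throughout. Of 21 measured, 19 rose, 1 fell and 1 was not called (median 0.98), against 18 higher and 0 lower (unadjusted 1) with LPS alone (median 1.21). In the direct comparison with LPS alone 9 of the 21 stood lower and 1, Bcl3, stood higher. Traf1, an adaptor of tumour necrosis factor receptors, read 8.30 and 8.02 under LPS with IL-10, 9.80 and 9.57 with LPS alone, and 6.02 and 5.93 without stimulus (2.18 ± 0.12). Nfkbiz, an IkB protein that works in the nucleus, rose by 1.70 ± 0.22, and Tnip1, which restrains the pathway with Tnfaip3, by 1.63 ± 0.09. Nfkbia, the main inhibitor of NF-kB, stood at 13.41 and 13.42 under LPS with IL-10 and 13.44 and 13.48 with LPS alone, against 12.92 and 12.85 without stimulus. Ikbkg, the regulatory subunit of the kinase that frees NF-kB, was the 1 member called lower (-0.34 ± 0.10), which became 0.06 with the mean of all its probe sets and was not called without array 1 of LPS with IL-10 or without either unstimulated array.

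Of 37 measured interferon-stimulated genes, 10 were called higher, 1 lower and 26 not called (median 0.84), against 31 higher and 0 lower (unadjusted 0) with LPS alone (median 2.52). In the direct comparison with LPS alone, 0 stood higher (unadjusted 0) and 18 lower (median -1.50). On array 1 the list mean was 9.89 under LPS with IL-10 against 9.05 without stimulus, and on array 2 it was 8.74 against 7.84. No label says what a replicate number marks. The count called higher under LPS with IL-10 depended on how the gap between the arrays was treated, and was 27 with the replicate number as a block within genotype. It was 7 without array 1 of LPS with IL-10 and 7 without unstimulated array 2, but 18 without array 2 of LPS with IL-10 and 19 without unstimulated array 1, with medians of 0.37, 0.40, 1.40 and 1.39 in these 4 fits.

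Ifit1, an antiviral RNA-binding protein, read 11.12 and 9.86 under LPS with IL-10, 12.88 and 12.35 with LPS alone, and 9.34 and 7.73 without stimulus, a rise of 1.95 ± 0.48 whose call ended without array 1 of LPS with IL-10 or unstimulated array 2 (adjusted p up to 0.141). Mx1, an antiviral GTPase, read 8.78 and 6.66 under LPS with IL-10 against 7.79 and 5.34 without stimulus (1.15 ± 0.77), array 1 being the higher one in each group, while LPS alone gave 11.83 and 10.63. Irf7, the factor that amplifies interferon genes, read 10.25 and 8.01 against 10.01 and 7.85 (0.20 ± 0.73), with 11.54 and 10.48 under LPS alone. Irf1, a factor of the interferon response, had close arrays: it read 11.18 and 11.25 under LPS with IL-10, 12.55 and 12.53 with LPS alone, and 10.40 and 10.31 without stimulus, and was called in both comparisons (0.86 ± 0.07 and -1.32 ± 0.07). The guanylate-binding proteins Gbp2, Gbp3 and Gbp7, which act against microbes inside cells, had wider gaps between the unstimulated arrays (9.83 and 8.50 for Gbp2) and rose by 2.11 ± 0.31, 2.10 ± 0.23 and 2.08 ± 0.14, and stood 0.69, 0.65 and 0.45 below LPS alone without being called there. Trim25, a ubiquitin ligase of the RNA sensor RIG-I, was the 1 member that fell: 9.36 and 9.08 under LPS with IL-10, 10.37 and 10.42 with LPS alone, and 10.24 and 10.51 without stimulus (-1.15 ± 0.11).

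**Figure D3:**
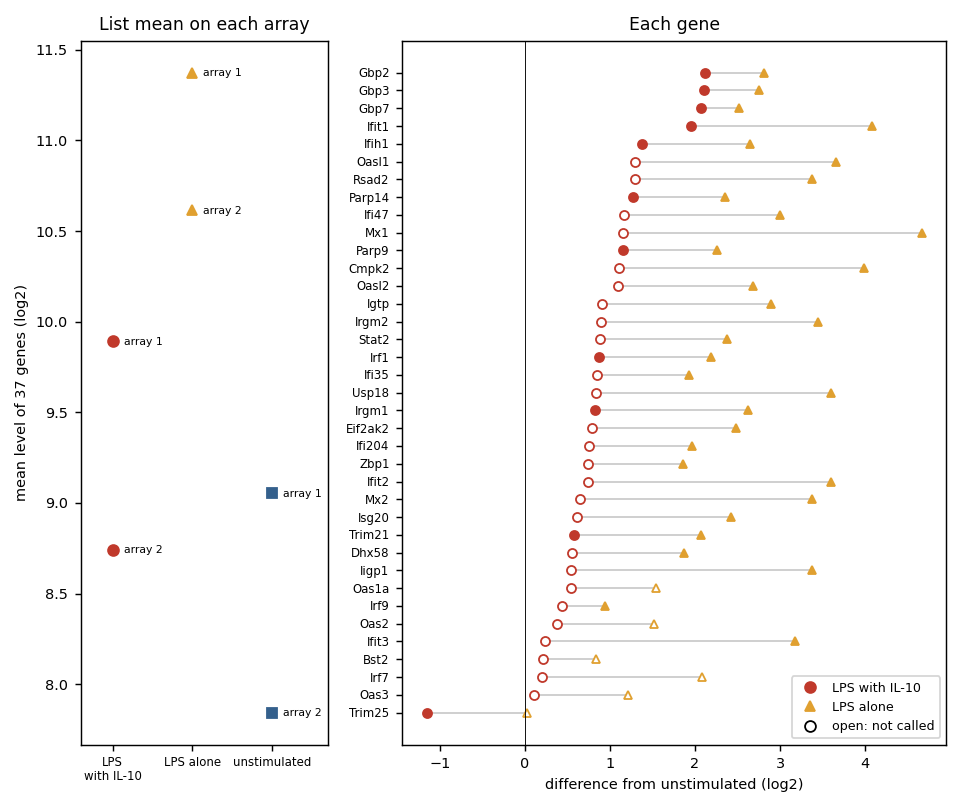
Left, the mean level of 37 interferon-stimulated genes (y axis, log2) on each array of the IL10-/- groups, where array 2 is the lower one in all 3 groups. Right, the difference of each gene from unstimulated cells (x axis, log2) under LPS with IL-10 (circles) and LPS alone (triangles), with open symbols for genes not called, where 10 circles above 0 and 31 triangles are filled.

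Receptors that sense microbes had calls in both directions, with the falls near the 12.5% of all genes called lower. Among 25 genes of sensing receptors and adaptors, 11 rose and 3 fell (median 0.20), against 10 and 2 with LPS alone (median 0.06). Clec4e, a lectin that binds mycobacterial glycolipid, rose by 2.19 ± 0.08 to 12.77 and 12.88, against 13.03 and 13.05 with LPS alone and 10.57 and 10.70 without stimulus. Tlr1 rose by 1.86 ± 0.28, Tlr2 by 0.94 ± 0.08, Tlr6 by 0.76 ± 0.12 and Myd88 by 1.38 ± 0.10. Marco, a scavenger receptor, rose by 1.62 ± 0.31 and stood 1.60 ± 0.31 below LPS alone, whereas the scavenger receptor Msr1 rose by 1.21 ± 0.10 and stood 0.65 ± 0.10 above it. Tlr7, a sensor of single-stranded RNA, read 9.57 and 9.65 under LPS with IL-10, 10.59 and 10.31 with LPS alone, and 10.62 and 10.55 without stimulus (-0.97 ± 0.12). Cd180 (-0.74 ± 0.12), a relative of Tlr4, and Clec7a (-0.72 ± 0.10), the receptor for fungal beta-glucan, were the other two that fell. Tlr4 itself was not called (-0.17 ± 0.10) and stood 0.50 ± 0.10 above LPS alone.

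Genes of antimicrobial defence and lipid mediator synthesis, not all of them enzymes, numbered 23. Of these 15 rose and 1 fell (median 0.70), against 13 and 2 with LPS alone (median 0.60). Hp, haptoglobin, read 9.31 and 8.80 under LPS with IL-10, 7.59 and 7.64 with LPS alone, and 6.70 and 7.04 without stimulus, and rose by 2.18 ± 0.17. Arg2, the mitochondrial arginase, rose by 2.17 ± 0.17, of which 1.57 ± 0.17 lay above LPS alone. Saa3, an acute phase protein, rose by 2.82 ± 0.34, and Ptgs2, the inducible enzyme of prostaglandin synthesis, by 2.40 ± 0.18 from a dim 5.14 and 5.25. Sod2, which clears superoxide in mitochondria, rose by 1.66 ± 0.09 and did not differ detectably from LPS alone (0.09 ± 0.09). Gch1, which makes the cofactor of nitric oxide synthase, rose by 1.19 ± 0.09 and stood 1.20 ± 0.09 below LPS alone. Lta4h, which makes leukotriene B4, was the 1 member lower (-0.49 ± 0.14), a call that ended without unstimulated array 2 (adjusted p up to 0.273 over all fits) and without array 1 of LPS with IL-10, while 2 members were called lower without array 2 of LPS with IL-10.

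Of 15 co-stimulation and adhesion genes, 6 rose, 1 fell and 8 were not called (median 0.28), against 7 and 2 with LPS alone (median 0.19), and 6 stood below LPS alone with 1 above. Icam1, the adhesion ligand, rose by 1.80 ± 0.13 and Cd274, the checkpoint ligand PD-L1, by 1.47 ± 0.19. Icosl rose by 1.83 ± 0.15, but by 0.90 with the mean of its probe sets. Slamf1, a receptor between immune cells, read 7.83 and 8.18 under LPS with IL-10, 6.73 and 6.82 with LPS alone, and 6.70 and 6.50 without stimulus (1.40 ± 0.15), and it was the member above LPS alone. Havcr2, the inhibitory receptor TIM-3, was the member that fell (-1.63 ± 0.21), 2 falling without unstimulated array 1 or array 2 of LPS with IL-10, and Cd80 (-0.03 ± 0.12) and Cd86 (-0.19 ± 0.17) were not called. MHC class II presentation had 0 of 10 higher (unadjusted 1, and 1 called without unstimulated array 1) and 1 lower, the reductase Ifi30 (-0.50 ± 0.08), with Cd74 at 12.28 and 11.29 against 12.14 and 11.02 without stimulus. MHC class I loading had 3 of 13 higher and 0 lower (unadjusted 0), namely Psmb10 by 0.73 ± 0.14, Tap2 by 0.66 ± 0.17 and Tapbpl by 0.55 ± 0.17. Without array 1 of LPS with IL-10 or unstimulated array 2, 1 of the 13 was called.

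Chemoattractant and growth factor receptors rose in 10 of 27 cases and fell in 3 (median 0.32), against 6 and 4 with LPS alone (median -0.04). Of all genes, 12.5% were called lower under LPS with IL-10 and 17.1% with LPS alone. Gpr84, a receptor for medium-chain fatty acids, read 12.88 and 12.58 under LPS with IL-10, 12.96 and 12.54 with LPS alone, and 10.02 and 9.35 without stimulus (3.05 ± 0.22). Gpr35 read 7.81 and 7.34 under LPS with IL-10, 5.69 and 5.21 with LPS alone, and 6.02 and 5.94 without stimulus (1.59 ± 0.20), so that only the cells given IL-10 were above both other groups. Csf3r, the receptor of the granulocyte growth factor, likewise rose by 1.25 ± 0.12, against -0.07 ± 0.12 with LPS alone. Ccrl2, a receptor that presents chemerin, rose by 0.98 ± 0.11 and stood 1.92 ± 0.11 below LPS alone. Cxcr4, which holds cells in the marrow, fell by 1.15 ± 0.19.

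Of 20 genes of efferocytosis and complement, 0 rose (unadjusted 1, and 1 called without unstimulated array 1 or array 2 of LPS with IL-10) and 4 fell (median -0.08, or about 0 with centred arrays). LPS alone gave 0 higher (unadjusted 1) and 7 lower (median -0.28). Beside Mertk these were its bridging ligand Gas6 (-0.65 ± 0.12), the integrin chain Itgb5 (-1.21 ± 0.07) and the lipid receptor Trem2 (-0.46 ± 0.09). The complement genes C1qa, C1qb and C1qc differed by -0.04 to 0.05 and were not called. Fc receptors, which bind antibodies, had 2 of 6 higher and 0 lower (unadjusted 1), with a median of 0.61 that was 0.41 without array 1 of LPS with IL-10 and 0.38 without unstimulated array 2. The inhibitory Fcgr2b read 13.14 and 13.09 under LPS with IL-10, 12.28 and 12.13 with LPS alone, and 11.85 and 11.85 without stimulus (1.26 ± 0.12), and the activating Fcgr3 rose by 0.56 ± 0.10, 1.06 ± 0.10 above LPS alone. Lysosomal genes fell in 10 of 24 cases and rose in 1 (median -0.19), against 9 lower and 0 higher (unadjusted 0) with LPS alone (median -0.19), and in the direct comparison 0 were higher (unadjusted 0) and 0 lower (unadjusted 1). Examples are the sialidase Neu1 (-0.69 ± 0.09, but -0.33 with the mean of its probe sets) and the regulator Tfeb (-0.69 ± 0.10). The cholesterol transporter Npc1 (-0.68 ± 0.14) and the lipase Lipa (-0.64 ± 0.13, not called without array 1 of LPS with IL-10) fell as well. Ctsc (0.47 ± 0.13) was the member that rose. The falls numbered 6 without array 1 of LPS with IL-10 and 6 without unstimulated array 1, and Ctsc was not called without unstimulated array 2 or either array of LPS with IL-10 (adjusted p up to 0.199).

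Of 25 measured glycolysis and hypoxia genes, 14 rose, 1 fell and 10 were not called under LPS with IL-10 (median 0.38). LPS alone gave 8 higher and 3 lower (median -0.10), and the direct comparison with LPS alone gave 13 higher and 0 lower (unadjusted 1). Pfkfb3, which makes the activator of phosphofructokinase, read 10.79 and 10.71 under LPS with IL-10, 9.38 and 9.12 with LPS alone, and 8.79 and 8.36 without stimulus. The groups were apart, with a rise of 2.18 ± 0.15 and 1.50 ± 0.15 of it above LPS alone, while its second probe set changed by 0.57 and was not called. Slc2a1, the glucose transporter GLUT1, rose by 2.00 ± 0.12 to 11.04 and 11.02, against 10.27 and 10.36 with LPS alone and 9.07 and 8.99 without stimulus.

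Further along the pathway, Pfkl rose by 1.31 ± 0.08 and Ldha, which makes lactate, by 0.39 ± 0.10, while LPS alone left Ldha at -0.28 ± 0.10. Tpi1 read 11.47 and 11.50 under LPS with IL-10, 10.69 and 10.65 with LPS alone, and 11.11 and 11.11 without stimulus, which placed the 2 stimulated groups on opposite sides of the unstimulated one (0.38 ± 0.09 and -0.44 ± 0.09). Egln3 (1.00 ± 0.15) and Bnip3 (0.82 ± 0.12), both targets of hypoxia-inducible factor, and Hif1a itself (0.81 ± 0.11) rose as well. Vegfa, the vascular growth factor, was the 1 member that fell (-0.80 ± 0.15). In the fits without 1 array 10 to 12 members rose. Mitochondrial respiration and Krebs cycle genes had 1 of 28 higher and 5 lower (median -0.13), against 0 higher (unadjusted 0) and 8 lower with LPS alone (median -0.22), where 12.5% and 17.1% of all genes were called lower in these comparisons. The member that rose was Idh3a (0.53 ± 0.08, not called with the mean of its probe sets), and the falls were Idh1 (-0.75 ± 0.19), Idh2 (-0.59 ± 0.10), Sdhb (-0.35 ± 0.08), Ppargc1b (-0.35 ± 0.11) and Ndufs3 (-0.29 ± 0.08). Only 2 of these 5 falls were called without unstimulated array 1, 2 without unstimulated array 2, 2 without array 2 of LPS with IL-10 and 3 without its array 1.

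**Figure D4:**
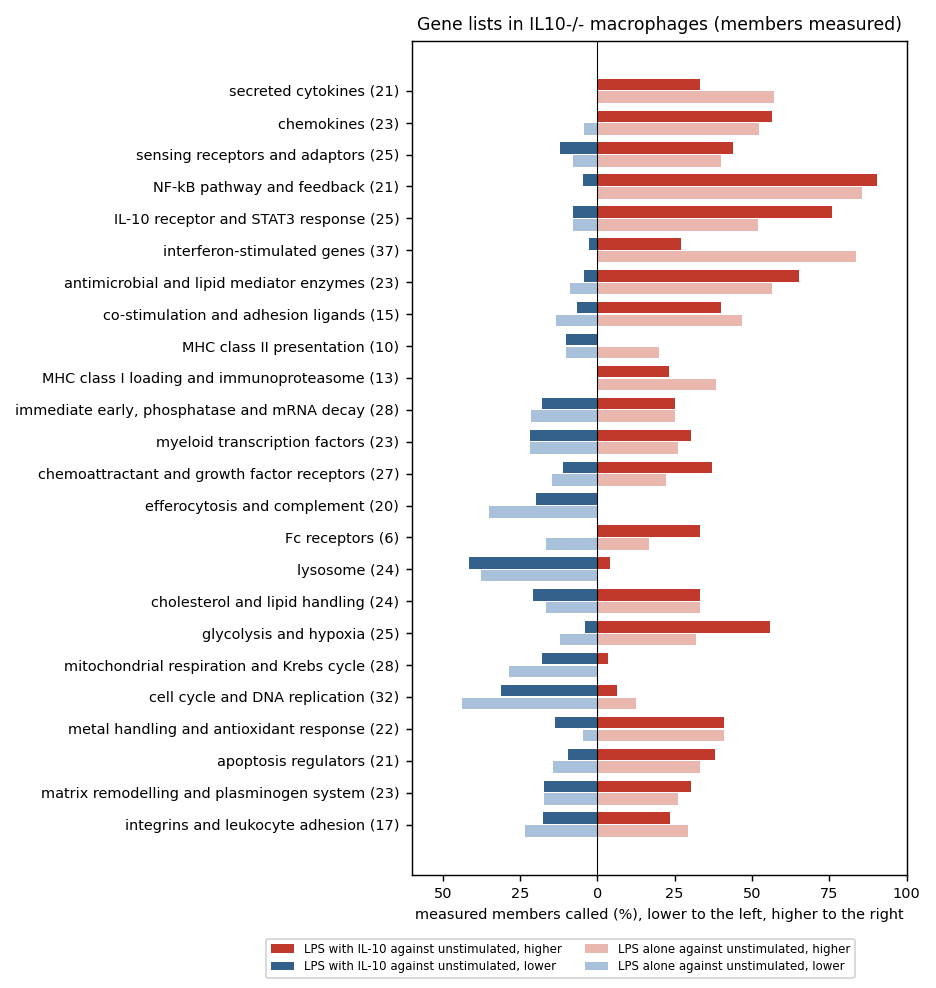
Share of the measured members of 24 gene lists called higher (right of 0) and lower (left of 0) in IL10-/- cells (x axis, percent), with LPS with IL-10 against no stimulus in the upper, dark bar and LPS alone against no stimulus in the lower, pale bar of each list. Interferon-stimulated genes are called higher in 10 of 37 cases under LPS with IL-10 against 31 with LPS alone, and glycolysis genes in 14 of 25 against 8.

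Lipid and metal genes had calls in both directions, where 6.94% of all genes were called higher and 12.5% lower. The falls among metal genes were near that share. Cholesterol and lipid handling had 8 of 24 higher and 5 lower (median 0.19), against 8 and 4 with LPS alone (median 0.04). The risers were enzymes and the regulator of sterol synthesis, such as Idi1 (1.45 ± 0.22), Cyp51 (1.35 ± 0.25), Sc5d (1.23 ± 0.22) and Sqle (1.21 ± 0.15). Beside Lpin1 the falls were in Mylip (-0.87 ± 0.12), Dhcr7 (-0.49 ± 0.14), Abcg1 (-0.42 ± 0.10) and Plin2 (-0.40 ± 0.12), and the calls of Dhcr7, Abcg1 and Plin2 ended without unstimulated array 1. The count of falls was 2 in 3 of the fits without 1 array (either unstimulated array or array 2 of LPS with IL-10) and 3 in the remaining one. Metal handling and antioxidant genes had 9 of 22 higher and 3 lower (median 0.09), against 9 and 1 with LPS alone (median 0.12). Slc7a11, the cystine importer, rose by 1.69 ± 0.24, whereas Gclc (-0.82 ± 0.17) and Gclm (-0.51 ± 0.11), the 2 subunits of the first enzyme of glutathione synthesis, were lower with Slc40a1. Without array 1 of LPS with IL-10 the calls of Gclc and Gclm ended (adjusted p 0.0719 and 0.0614) and 1 fall was called.

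Of 32 genes of the cell cycle and DNA replication, 2 rose, 10 fell and 20 were not called (median -0.21), against 4 and 14 with LPS alone (median -0.32). The falls included the replicative helicase subunits Mcm7 (-1.37 ± 0.14), Mcm6 (-1.03 ± 0.10) and Mcm2 (-0.94 ± 0.15) and the kinase Cdk1 (-0.84 ± 0.14), and the risers were Cdkn1a and Mki67 (1.39 ± 0.26). Without array 1 of LPS with IL-10 the falls numbered 5. Apoptosis regulators had 8 of 21 higher and 2 lower (median 0.07), against 7 and 3 with LPS alone (median 0.01), led by the inflammatory caspase Casp4 (2.15 ± 0.22), the death receptor Fas (2.06 ± 0.11), its inhibitor Cflar (1.59 ± 0.09) and Gadd45b (1.50 ± 0.13). Pmaip1, a promoter of cell death, fell by 1.00 ± 0.13, and Casp9 was lower (-0.51 ± 0.13), a call that ended without unstimulated array 2 or either array of LPS with IL-10, and 1 fall was called without unstimulated array 2 or array 1 of LPS with IL-10. With the mean of all its probe sets, Casp9 differed by -0.12 and was not called. Nlrp3, the inflammasome sensor, read 10.99 and 11.35 under LPS with IL-10, 12.06 and 11.81 with LPS alone, and 9.72 and 9.64 without stimulus.

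Matrix remodelling and plasminogen genes had 7 of 23 higher and 4 lower (median 0.13), against 6 and 4 with LPS alone (median 0.16). Serpinb2, an inhibitor of plasminogen activators, read 6.80 and 6.70 under LPS with IL-10, 5.42 and 5.37 with LPS alone, and a dim 4.65 and 4.62 without stimulus (2.12 ± 0.08). The collagenase Mmp13 rose by 2.68 ± 0.29, the membrane protease Mmp14 by 1.94 ± 0.31 and the clotting factor F10 by 1.64 ± 0.18. Thbs1, thrombospondin, fell by 2.28 ± 0.22, with smaller falls in Serpinb6a (-0.53 ± 0.11), Adam8 (-0.47 ± 0.09) and Timp2 (-0.42 ± 0.07), of which the Serpinb6a call ended without array 1 of LPS with IL-10 or unstimulated array 2 (adjusted p up to 0.078). Integrins and adhesion genes had 4 of 17 higher (Pstpip2 by 1.35 ± 0.14, Itgal by 0.95 ± 0.29, Itga5 by 0.85 ± 0.13 and Itgam by 0.76 ± 0.23) and 3 lower (Cytip, Selplg by -0.64 ± 0.07 and Itga6 by -0.60 ± 0.17), with a median of -0.07 that became 0.01 with centred arrays. The calls of Itgal, Itgam and Itga6 ended without either unstimulated array, and 2 of the 17 were called higher without array 1 of LPS with IL-10 or without either unstimulated array.

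Transcription factors of the myeloid lineage rose in 7 of 23 cases and fell in 5 (median -0.0007, or 0.07 with centred arrays), against 6 and 5 with LPS alone (median 0.11). Cebpd rose by 1.88 ± 0.12 and Cebpa, which drives myeloid differentiation, fell by 1.87 ± 0.18 to 10.11 and 10.30, against 9.57 and 9.81 with LPS alone and 12.17 and 12.00 without stimulus. Pparg (-1.57 ± 0.08), Nr4a1 (-1.44 ± 0.11), Klf4 (-1.19 ± 0.20) and Id3 (-0.91 ± 0.19) were the other falls, and the Id3 call ended without unstimulated array 1 (adjusted p 0.0519). Id1, an inhibitor of differentiation factors, read 9.98 and 9.70 under LPS with IL-10, 8.36 and 7.71 with LPS alone, and 9.04 and 8.31 without stimulus (1.16 ± 0.25), a call that ended without unstimulated array 2 or array 1 of LPS with IL-10. Immediate early, phosphatase and mRNA decay genes had 7 of 28 higher and 5 lower (median 0.01), against 7 and 6 with LPS alone (median 0.07). The MAP kinase phosphatases Dusp16 and Dusp2 rose by 2.37 ± 0.09 and 1.71 ± 0.16, and the RNA-binding decay factors Zfp36l2 and Zfp36l1 fell by 1.09 ± 0.13 and 0.96 ± 0.19. With the mean of all its probe sets, Zfp36l2 differed by only -0.36, still called. Egr1, a factor induced by the ERK kinases, read 7.08 and 6.75 under LPS with IL-10, 8.66 and 8.12 with LPS alone, and 8.15 and 7.64 without stimulus (-0.98 ± 0.20), a call that ended without unstimulated array 1 (adjusted p 0.0533).

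The same response was tested between the genotypes as an interaction, with no array on both sides. Of all genes, 146 (1.18%) had a more positive difference from unstimulated cells in p50-/-IL10-/- than in IL10-/- cells and 126 (1.02%) a more negative one. The total of 272 became 79 to 172 in the 8 fits without 1 array, lowest when array 2 of the doubly deficient cells with LPS and IL-10 was left out and highest when array 1 of the IL10-/- cells with both agents was. In p50-/-IL10-/- cells Il12b read 8.72 and 8.88 with LPS and IL-10 against 4.81 and 5.59 without stimulus, a difference of 3.60 ± 0.21, against 0.69 ± 0.21 in IL10-/- cells. The difference between the genotypes was 2.91 ± 0.30 (adjusted p 0.00205). Il15 read 11.19 and 11.24 with both agents against 8.15 ± 0.21 (SD) without stimulus in p50-/-IL10-/- cells, a difference of 3.06 ± 0.12, against 0.22 ± 0.12 in IL10-/- cells (between genotypes 2.85 ± 0.17, adjusted p 9.58e-05). Gfi1, a transcriptional repressor of myeloid cells, differed by 2.84 ± 0.27 between the genotypes, Mir155hg, a microRNA host gene, by 2.48 ± 0.27, and Batf2, a factor of interferon responses, by 2.37 ± 0.47. The Batf2 call ended in all 8 fits without 1 array (adjusted p up to 0.129).

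Tsc22d1, a leucine zipper factor, went in opposite directions: 10.79 and 10.77 against 9.05 and 9.18 in p50-/-IL10-/- cells (1.66 ± 0.14), and 8.45 and 8.86 against 9.17 and 9.49 in IL10-/- cells (-0.67 ± 0.14), where the fall was not called without unstimulated array 2 or array 1 of LPS with IL-10. Its probe set name marks shared probes, and in IL10-/- cells 3 of its 5 other probe sets had the same sign. Pfkfb3 rose by 0.46 ± 0.15 in p50-/-IL10-/- cells, against 2.18 ± 0.15 in IL10-/- cells (between genotypes -1.71 ± 0.21, adjusted p 0.00343). Zfp36l1 changed by -2.78 ± 0.19 against -0.96 ± 0.19, and Serpinb8, a protease inhibitor, by -1.48 ± 0.09 against 0.08 ± 0.09. Scd2, a fatty acid desaturase, Ptger2, a prostaglandin receptor, and Eno2, an enolase, had more negative responses in p50-/-IL10-/- cells as well, by -2.20 ± 0.42, -1.66 ± 0.30 and -1.64 ± 0.25. The call of Scd2 ended in 6 and that of Ptger2 in 7 of the 8 fits without 1 array (adjusted p up to 0.111 and 0.0894), and that of Eno2 when array 2 of the doubly deficient cells with LPS and IL-10 was left out (adjusted p 0.0558). Eno2 was dim in p50-/-IL10-/- cells with LPS and IL-10, and Il12b, Gfi1 and Mir155hg were dim without stimulus in both genotypes.

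Among the lists, the genotype difference was called positive in 6 of 21 cytokine genes and negative in 1 (Il1rn, -1.08 ± 0.23). It was positive in 5 of 21 NF-kB genes (Nfkbie, Birc2, Relb, Birc3 and Nfkb2) and in 5 of 37 interferon-stimulated genes (Mx2, Irgm2, Trim21, Irf1 and Trim25), with 0 negative (unadjusted 0) in either. Glycolysis and hypoxia genes had 0 positive (unadjusted 1) and 5 negative of 25 (Pfkfb3, Eno2, Bnip3, Pfkl and Tpi1). Medians of the genotype difference were 0.44, 0.39, 1.00 and -0.49 for these lists, beside 0.04 for all genes. The interferon value includes the IL10-/- arrays with the gap described above. In p50-/-IL10-/- cells the interferon list means on arrays 1 and 2 were 9.75 and 9.47 without stimulus. With LPS and IL-10 they were 11.38 and 11.56. How the list results of the genotype difference depend on single arrays was not tested. Marker lists differed between the genotypes too: neutrophil markers summed to 3676 to 3788 with LPS and IL-10 and 3989 to 4095 without stimulus in p50-/-IL10-/- cells, against 6691 to 6706 and 7560 to 8063 in IL10-/- cells, and dendritic markers to 1937 to 2474 with LPS and IL-10 and 1728 to 2081 without stimulus, against 639 to 715 and 629 to 792 in IL10-/- cells. Stromal markers summed to 796 to 800 with LPS and IL-10 and 638 to 650 without stimulus in p50-/-IL10-/- cells. In IL10-/- cells they summed to 947 to 1229 and 941 to 1237. The part of these marker lists in the genotype differences was not tested.

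**Figure D5:**
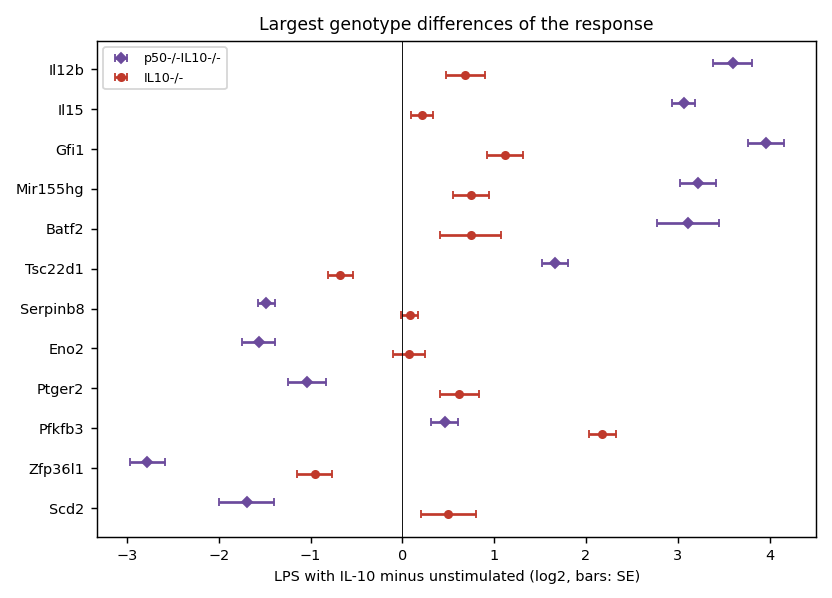
Difference between LPS with IL-10 and no stimulus (x axis, log2) in p50-/-IL10-/- cells (diamonds) and IL10-/- cells (circles). Bars are 1 SE, with n = 2 arrays per group. The 12 genes are those with the largest called genotype differences, positive and negative. Il12b, Il15 and Gfi1 lie near 3.60, 3.06 and 3.96 in p50-/-IL10-/- cells against 0.69, 0.22 and 1.12 in IL10-/- cells, and Pfkfb3 lies at 0.46 against 2.18.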

How the data were processed

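The labels describe Affymetrix expression arrays of biotinylated cRNA from 6 µg of total RNA. The authors deposited 1 log2 value per probe set and array, and the submitters' processing notes name RMA and limma without a version or role. The arrays' medians lay between 6.92 and 6.97, and no further normalization was applied. The table holds 22690 probe sets: 64 controls were left out, 20380 named 1 gene in the platform annotation (20351 matched the RefSeq gene table, with 0 symbols changed), 691 named several and 1555 named none. The probe set with the highest mean over all 12 arrays was kept for each of 12393 genes, 4956 of which had several. The sources used here do not give the genome build of the probe annotation.

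Group means of all 12 arrays were fitted with limma 3.58.1 in R 4.3.3 (lmFit and eBayes, 6 residual and 4.47 prior degrees of freedom), with Benjamini-Hochberg adjustment over all genes. The median SE was 0.0998, or 0.141 for the genotype difference. The number of arrays limits the precision. Alternatives used the compared groups alone, left out 1 array, blocked on the replicate number, centred arrays on their medians, averaged probe sets, left out dim genes, or used a trended robust variance prior.

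Named genes were the 12 largest called changes in each direction whose arrays did not overlap and whose higher group was above the dim level. Up to 4 called members of each list and direction were named, as were members completing a count of 5 or fewer. The 6 largest called genotype differences in each direction were also named. So were all of the IL-10 receptor and STAT3 list and the marker lists, and Il10. The comparison and the gene lists were chosen with earlier results of these data known. The gene targeted in the p50-/- genotype is not analysed here.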

Additional observations from a re-analysis of the deposited data

Results flagged for a closer look

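The 12 genes listed here were picked as the largest called genotype differences of the response to LPS with IL-10, positive and negative. All 12 therefore passed the direct limma test of that difference by selection, and their calls are no separate evidence. The difference, p50-/-IL10-/- minus IL10-/- cells on the log2 scale, was positive for Il12b (2.91), Il15 (2.85), Gfi1 (2.84), Mir155hg (2.48), Batf2 (2.37) and Tsc22d1 (2.34). It was negative for Scd2 (-2.20), Zfp36l1 (-1.82), Pfkfb3 (-1.71), Ptger2 (-1.66), Eno2 (-1.64) and Serpinb8 (-1.56). The calls of 8 of the 12 held in all alternatives run, and those of Batf2, Scd2, Ptger2 and Eno2 ended in at least 1. As the largest calls, these 12 do not stand for all 272 called genes, a total that became 79 to 172 without 1 array.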

How the results depend on the processing

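Of 158 named genes called between LPS with IL-10 and no stimulus, 120 kept their call and direction in all 10 alternatives and 38 lost the call in at least 1. These 158 were chosen largely as the largest called changes, of all genes or of a list, so their share does not stand for all 2411 calls. Ikbkg changed sign with the mean of all its probe sets (0.0558). That mean also gave smaller sizes for some genes that stayed called, such as Enc1 (-2.05), Ptgs2 (1.46) and Cebpd (1.35). Leaving out 1 array gave 1469 to 1910 calls for LPS with IL-10 against no stimulus (2411 with all arrays), 1950 to 3551 for LPS alone (3078), 426 to 1082 for the direct comparison of LPS with and without IL-10 (765) and 79 to 172 for the genotype difference (272). In these fits the lone array of a group is assumed to vary like the other groups. Fitting only the compared groups gave 1914 calls for LPS alone, 283 for the direct comparison and 437 for the genotype difference. The other alternatives kept each count within 1.5 times, apart from the block below.

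The groups share replicate numbers 1 and 2, and no label says that a number marks a shared animal or day. Deviations of same-numbered arrays correlated at 0.398 to 0.595 between the IL10-/- groups and at -0.49 to 0.28 between the p50-/-IL10-/- groups. With the replicate number as a block within genotype, 2714, 3366, 950 and 488 genes were called in the 4 comparisons, in the order above. The block moved the interferon-stimulated genes called higher with LPS and IL-10 from 10 to 27 of 37, and the Fc receptors from 2 to 4 of 6.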
